A study of Homo sapiens with 18 samples.

Results

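The genes described are ATF4, DDIT3 (CHOP), ATF3, CEBPG, CEBPB, CHAC1, TRIB3, DDIT4 and XBP1, stress-response transcription factors with some of their induced targets, in human SK-N-MC cells chronically exposed to rotenone. They were chosen by name, and each was read from the probe sets that the annotation of the array assigns to that gene alone. Of 9162 genes tested, these are 9. Each had 1 such probe set, and all 9 probe sets had a signal of at least 50 on all 18 arrays, so none was lost to the filter on low values. ATF4 (probe set 200779_at) and XBP1 (200670_at) lie on chromosome 22, DDIT3 (209383_at) on 12, ATF3 (202672_s_at) on 1, CEBPG (204203_at) on 19, CEBPB (212501_at) and TRIB3 (218145_at) on 20, CHAC1 (219270_at) on 15 and DDIT4 (202887_s_at) on 10. The suffix _s_at of ATF3 and DDIT4 marks probes that match more than 1 transcript. The signal is the model-based expression index of a probe set, a linear value in arbitrary units that can be compared between arrays but not between genes.

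SK-N-MC is a single human cell line that the labels call neuroepithelioma and the methods call neuroblastoma, and rotenone, a plant-derived pesticide, inhibits mitochondrial complex I and also disturbs microtubules. Cells were grown without pyruvate and received vehicle (0.05% ethanol), 5 nM rotenone, described as sublethal, or 50 nM rotenone, described as slightly toxic, for 1 week or 4 weeks. Group names give the week and the dose, so that 1w0 nM, 1w5 nM and 1w50 nM are the groups of 1 week, while those of 4 weeks are 4w0 nM, 4w5 nM and 4w50 nM, with 3 arrays in each. By the series design, each array carries RNA pooled from 5 dishes of 1 of 3 experiments, and p-values reflect the scatter between such pools. Each dose was compared with the vehicle of its week, the doses with each other, the vehicle groups with each other, and the effect of each dose between weeks. A gene is said to rise or fall where the limma fit over all genes gave it an adjusted p below 0.05.

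In the integrated stress response, kinases that sense unfolded protein in the ER, missing amino acids, heme deficiency or double-stranded RNA phosphorylate the initiation factor eIF2. Bulk protein synthesis then drops, while the ATF4 mRNA, held back by upstream reading frames in unstressed cells, is translated better. ATF4 binds DNA as a dimer with other leucine-zipper proteins, among them C/EBP-gamma, and switches on amino acid supply genes as well as CHOP, ATF3, TRIB3 and CHAC1. Mitochondrial inhibitors can engage the same pathway through the kinase HRI. XBP1 belongs to a parallel arm of the ER stress response, in which the nuclease IRE1 splices its mRNA. Phosphorylated eIF2, ATF4 protein and spliced XBP1 are not seen by these arrays, which report mRNA amounts only.

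Before the results, some features of the arrays bear on them. Pearson correlations between arrays of a group, over the genes tested, were between 0.967 and 0.992 except in the 1w0 nM group. There the lowest was 0.914 and the highest 0.981, so the vehicle arrays of 1 week did not all differ to the same degree. Without 1w0 nM replicate 3, calls over all genes at 1 week were 1003 with 5 nM and 3107 with 50 nM. They were 530 and 1229 without replicate 1, 775 and 1346 without replicate 2, and 604 and 1838 with all arrays. Hybridization controls, transcripts added to every sample before hybridization, had on the 6 arrays of 4w5 nM and 4w50 nM 0.496 times their level on the other 12. The log2 ratio of the 3′ to the 5′ probe set of ACTB, a sign of RNA integrity, averaged -0.06 ± 0.03 (SD, n = 3) on the vehicle arrays of 4 weeks, 0.05 ± 0.05 in 4w5 nM and, highest, 0.17 ± 0.04 in 4w50 nM. It was -0.05 ± 0.18, -0.01 ± 0.11 and 0.04 ± 0.01 in the groups of 1 week by rising dose. The ACTB ratio was thus higher with rotenone at 4 weeks. The same ratio of GAPDH was not. By rising dose, the GAPDH ratio averaged -0.02 ± 0.04, -0.09 ± 0.01 and -0.03 ± 0.07 at 4 weeks (SD, n = 3). At 1 week its averages were -0.01 ± 0.05, -0.01 ± 0.04 and 0.06 ± 0.07. The probe pairs of ACTB and GAPDH thus differed at 4 weeks, and the part of RNA integrity in the results was not tested. Of the neuroepithelioma markers, 8 of 10 were measured and all 8 passed the filter, and of the markers of noradrenergic neuroblastoma 6 of 10 did. Among the latter GATA2 ranged from 360 to 953, GATA3 from 110 to 206, ISL1 from 43.7 to 204, MYCN from 61.7 to 169.7, DBH from 25.6 to 67.1 and CHGA from 20.9 to 66.1, while PHOX2A, HAND2 and TH never exceeded a signal of 30.1. The summed signal of those 6 was between 814 and 952 in 1w0 nM and between 966 and 1371 in the other groups. The summed signal of 11 fibroblast markers, many of them matrix genes, was between 6504 and 6684 in 1w0 nM, between 8860 and 9801 in 1w5 nM, between 8916 and 9468 in 1w50 nM and between 9083 and 9380 in 4w0 nM. In 4w5 nM and 4w50 nM it was between 5806 and 7175 and between 7017 and 7426. This sum was therefore low in the same groups in which ATF3 and CHAC1 were high, and its part in the results was not tested.

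**Figure D1:**
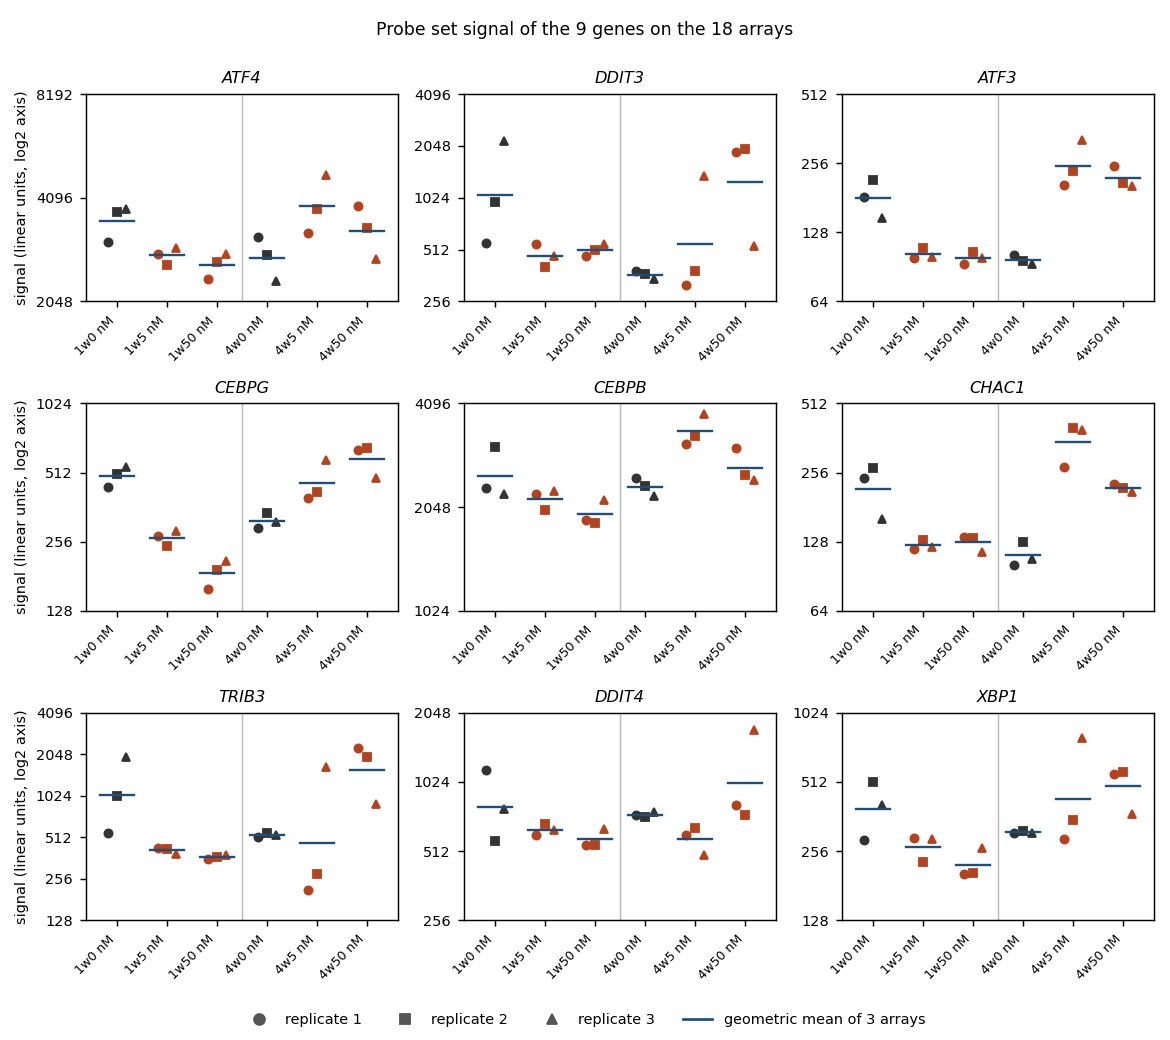
Signal of each of the 9 genes (linear units on a log2 axis) in the 6 groups on the x axis. Each point is 1 array, its shape gives the replicate number, and the bar is the geometric mean of 3 arrays. ATF3 and CHAC1 sat near 100 in 4w0 nM and rose in 4w5 nM and 4w50 nM, whereas DDIT3 and TRIB3 spread widely within 1w0 nM, 4w5 nM and 4w50 nM.

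At 1 week some of the stress genes fell with rotenone. Of the 9 genes, 3 fell with 5 nM (ATF3, CEBPG and CHAC1), where 1.62% of all genes tested fell, and 5 fell with 50 nM (ATF4, ATF3, CEBPG, CEBPB and CHAC1), where 11.3% did. None rose with either dose. Their median log2 change was -0.80 with 5 nM and -0.82 with 50 nM, against 0.07 and 0.02 for all genes tested. Cells were lysed together, so fewer cells with a transcript and less of it per cell cannot be told apart. Against the 4w0 nM arrays, used as the vehicle of 1 week in place of the 1w0 nM arrays, the number called was 0 with 5 nM and 1 with 50 nM. Of all 9162 genes tested, 0 and 250 were called there, so the 0 is no result about these genes. With the other groups kept out of the fit, ATF3, CEBPG and CHAC1 did not pass with 5 nM (adjusted p = 0.105, 0.0654 and 0.140). ATF4, CEBPB and CHAC1 did not pass with 50 nM in that fit (adjusted p = 0.0745, 0.146 and 0.0803).

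At 4 weeks some of the genes rose. With 5 nM, 5 of 9 genes rose (ATF4, ATF3, CEBPG, CEBPB and CHAC1), where 18.6% of all genes tested rose, and with 50 nM, 5 of 9 rose (DDIT3, ATF3, CEBPG, CHAC1 and TRIB3), where 23.5% did. None fell with either dose, although TRIB3 (log2 -0.20) and DDIT4 (log2 -0.35, with all 3 arrays below vehicle) had negative values with 5 nM that did not pass. The median log2 change of the 9 genes was 0.54 with 5 nM and 0.90 with 50 nM, against 0.03 and 0.02 for all genes tested. ATF3, CEBPG and CHAC1 were the genes that passed the test in all 4 comparisons of a dose with its vehicle.

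**Figure D2:**
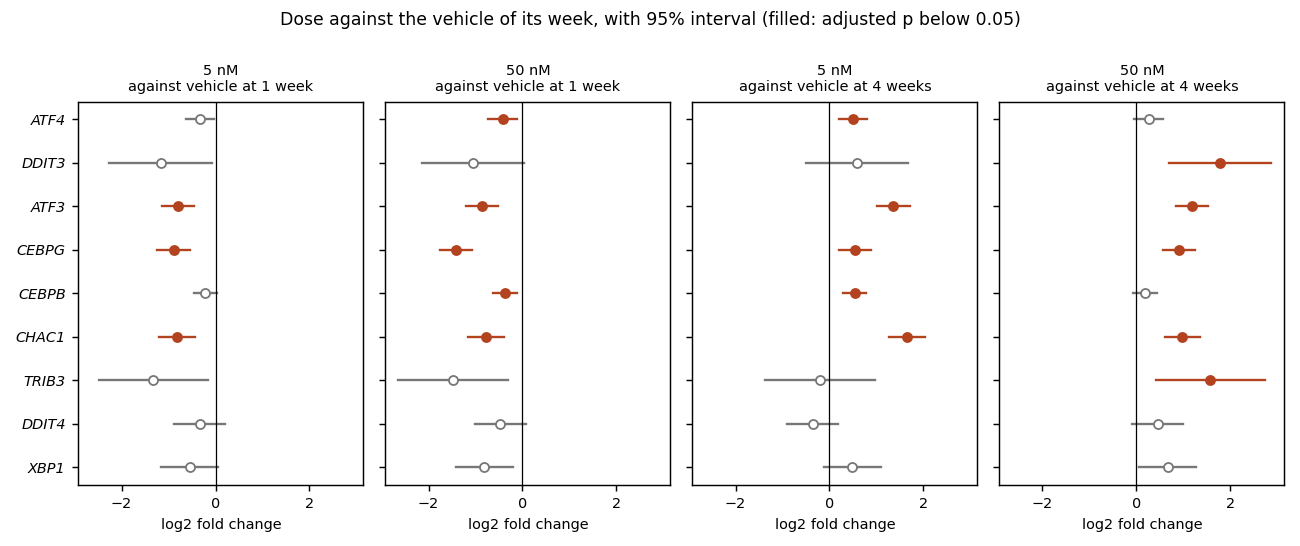
Log2 fold change (x axis) of each gene (y axis) for both doses relative to vehicle at each time, with its 95% interval as a line. Filled points have an adjusted p below 0.05. All 9 points lie below 0 in both panels of 1 week, and the intervals of DDIT3 and TRIB3 are the widest in every panel.

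ATF3 codes for a bZIP factor that is induced early by many stresses and often acts as a repressor. Its signals were 182, 216 and 147 on the 3 arrays of 1w0 nM, 99.1, 109.8 and 100.01 in 1w5 nM, and 92.9, 105 and 98.9 in 1w50 nM. At 4 weeks they were 102, 96.0 and 93.4 in 4w0 nM, 205, 236 and 323 in 4w5 nM, and 249.6, 209 and 204 in 4w50 nM. The groups with a dose did not overlap with the vehicle of their week, below it at 1 week and above it at 4 weeks. ATF3 fell 1.75-fold with 5 nM at 1 week (log2 -0.80, SE 0.16, adjusted p = 0.00717) and 1.82-fold with 50 nM (log2 -0.86, SE 0.16, adjusted p = 0.00198). At 4 weeks it rose 2.57-fold with 5 nM (log2 1.36, SE 0.16, adjusted p = 1.67e-05) and 2.26-fold with 50 nM (log2 1.18, SE 0.16, adjusted p = 3.30e-05). The 4w0 nM arrays lay at the level of the rotenone arrays of 1 week, and against them the log2 values of 1w5 nM and 1w50 nM were 0.08 and 0.02.

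CHAC1 codes for an enzyme that breaks down glutathione and is induced downstream of ATF4. Signals of 242, 268 and 160.4 were measured in 1w0 nM, 119, 131 and 121 in 1w5 nM, and 134, 132 and 116 in 1w50 nM. At 4 weeks the values were 101, 127 and 108 in 4w0 nM, 271, 402 and 392 in 4w5 nM, and 229, 220.1 and 211 in 4w50 nM. As for ATF3, each dose group was clear of the vehicle of its week. It fell 1.77-fold with 5 nM (adjusted p = 0.0109) and 1.72-fold with 50 nM (adjusted p = 0.00621) at 1 week. At 4 weeks it rose 3.13-fold with 5 nM (95% interval of the log2 change 1.27 to 2.02, adjusted p = 7.51e-06) and 1.97-fold with 50 nM (0.60 to 1.36, adjusted p = 0.000354). Its 4w5 nM signals were all above those of 4w50 nM, a 1.59-fold difference (log2 -0.67 for 50 nM against 5 nM, adjusted p = 0.0153) that did not pass without 4w5 nM replicate 2 (log2 -0.57, adjusted p = 0.0810).

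CEBPG codes for C/EBP-gamma, a bZIP protein without a strong activation domain of its own that pairs with ATF4. It had signals of 444, 506 and 542 in 1w0 nM, 271, 246 and 285 in 1w5 nM, and 159.7, 194 and 210.2 in 1w50 nM. Here the groups were ordered by dose without overlap, although the step from 5 nM to 50 nM did not pass the test (log2 -0.51, SE 0.16, adjusted p = 0.202). CEBPG fell 1.86-fold with 5 nM (adjusted p = 0.00344) and 2.65-fold with 50 nM (adjusted p = 4.07e-05). At 4 weeks its signals were 292, 343 and 311 in 4w0 nM, 398, 421 and 581 in 4w5 nM, and 645, 652 and 483 in 4w50 nM. It rose 1.46-fold with 5 nM (adjusted p = 0.0151) and 1.87-fold with 50 nM (adjusted p = 0.000318). The rise with 5 nM did not pass without 4w0 nM replicate 1 (adjusted p = 0.0612) or without 4w5 nM replicate 3 (adjusted p = 0.0780). Against the 4w0 nM arrays CEBPG was still lower in 1w50 nM (log2 -0.75, adjusted p = 0.0287) and was the gene called there.

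ATF4 codes for the activator at the center of the response, which is regulated mainly at translation. Its mRNA moved little: signals were 3043, 3734 and 3794 in 1w0 nM, 2820.0, 2614 and 2938 in 1w5 nM, and 2387, 2659.6 and 2817 in 1w50 nM. At 4 weeks they were 3143, 2787 and 2345 in 4w0 nM, 3232, 3787 and 4768 in 4w5 nM, and 3879, 3345 and 2714 in 4w50 nM. The fall with 50 nM at 1 week, 1.34-fold, was just inside the threshold (adjusted p = 0.0489). It did not pass when any of 1w0 nM replicates 2 and 3 or 1w50 nM replicates 1, 2 and 3 was left out (adjusted p between 0.0570 and 0.177). The rise with 5 nM at 4 weeks was 1.42-fold (adjusted p = 0.0136), with all 4w5 nM arrays above those of 4w0 nM. It did not pass without 4w0 nM replicate 3 (adjusted p = 0.0810) or 4w5 nM replicate 3 (adjusted p = 0.0754). With 50 nM at 4 weeks the arrays overlapped with vehicle (log2 0.26, SE 0.15, adjusted p = 0.167).

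CEBPB codes for C/EBP-beta, a bZIP factor of the same family that is active in growth, inflammation and ER stress. In 1w0 nM it had signals of 2327, 3067 and 2241, in 1w5 nM 2233, 2008 and 2276, and in 1w50 nM 1875, 1838 and 2153. The fall with 50 nM was 1.29-fold (adjusted p = 0.0372), and it did not pass without 1w0 nM replicate 2 (log2 -0.23, adjusted p = 0.186), 1w50 nM replicate 1 (adjusted p = 0.123) or 1w50 nM replicate 2 (adjusted p = 0.124). In 4w0 nM the signals were 2485, 2355 and 2212, in 4w5 nM 3133, 3301 and 3821, and in 4w50 nM 3049, 2534 and 2450.0. CEBPB thus rose 1.45-fold with 5 nM at 4 weeks (adjusted p = 0.00251), with no overlap and in every fit that left out an array, whereas 50 nM gave log2 0.18 (SE 0.12, adjusted p = 0.236). The difference between the doses at 4 weeks was log2 -0.35 (SE 0.12, adjusted p = 0.0495), and it did not pass without any one of 4w5 nM replicates 1, 2 and 3 or 4w50 nM replicates 2 and 3 (adjusted p between 0.0506 and 0.155).

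DDIT3, the gene of CHOP, and TRIB3, a pseudokinase gene whose product is induced by ATF4 and CHOP and inhibits them and AKT, were the least uniform within groups. Their standard deviations within groups, pooled over the 6 groups on the log2 scale, were 0.76 and 0.81, at the 99.5th and 99.7th percentile of all genes tested, whose median was 0.21. DDIT3 had signals of 559, 965 and 2198 in 1w0 nM, 549.7, 405 and 470.2 in 1w5 nM, and 471, 511 and 552 in 1w50 nM. The 1w0 nM arrays were all above the rotenone arrays but differed among themselves, and neither dose passed the test (log2 -1.17 and -1.05, SE 0.52, adjusted p = 0.183 and 0.161). At 4 weeks the signals of DDIT3 were 384, 372 and 346 in 4w0 nM, 318, 385 and 1371 in 4w5 nM, and 1884, 1971 and 540.2 in 4w50 nM. All 4w50 nM arrays were above vehicle, whereas in 4w5 nM replicate 3 stood far above it, replicate 2 was level with its highest array and replicate 1 was below all of them.

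DDIT3 rose 3.43-fold with 50 nM at 4 weeks (log2 1.78, SE 0.52, adjusted p = 0.0110). The value was log2 2.39 (adjusted p = 0.00126) without 4w50 nM replicate 3, the low array, and it did not pass without replicate 1 (adjusted p = 0.0628) or replicate 2 (adjusted p = 0.0596) of that group. With 5 nM it had log2 0.59 (adjusted p = 0.408), and -0.07 without 4w5 nM replicate 3. The doses at 4 weeks differed by log2 1.19 (adjusted p = 0.125), which passed without 4w5 nM replicate 3 (log2 1.85, adjusted p = 0.0139) or without 4w50 nM replicate 3 (log2 1.80, adjusted p = 0.0184).

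TRIB3 had signals of 551, 1015 and 1953 in 1w0 nM, 428, 421 and 388 in 1w5 nM, and 358, 369 and 383 in 1w50 nM. As for DDIT3, vehicle was above both doses on all arrays, and neither dose passed (log2 -1.32 and -1.48, SE 0.55, adjusted p = 0.158 and 0.0671). Without 1w0 nM replicate 1 TRIB3 fell with 50 nM (log2 -1.93, adjusted p = 0.0386). At 4 weeks the signals were 513, 547 and 534 in 4w0 nM, 213, 279 and 1664 in 4w5 nM, and 2267, 1947 and 892 in 4w50 nM. Replicates 1 and 2 of 4w5 nM lay below every vehicle array and replicate 3 above them.

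With 50 nM at 4 weeks TRIB3 rose 2.97-fold (log2 1.57, SE 0.55, adjusted p = 0.0302). Its adjusted p was 0.0144 without 4w50 nM replicate 3 and between 0.0637 and 0.124 without any other array of 4w0 nM or 4w50 nM. With 5 nM its log2 value was -0.20 (adjusted p = 0.809), and it fell, with log2 -1.13 and an adjusted p of 0.0368, without 4w5 nM replicate 3. TRIB3 was 3.42-fold higher with 50 nM than with 5 nM at 4 weeks (log2 1.77, adjusted p = 0.0343). That difference was log2 2.70 (adjusted p = 0.000664) without 4w5 nM replicate 3 and did not pass without 4w5 nM replicate 1 or 2 or 4w50 nM replicate 1 or 2 (adjusted p between 0.117 and 0.167).

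XBP1 codes for the bZIP factor of the IRE1 arm, which raises chaperone and ER degradation genes. Its signals were 287, 512 and 407 in 1w0 nM, 291, 229 and 290.0 in 1w5 nM, and 203, 205 and 264 in 1w50 nM. The arrays of 1w50 nM were all below vehicle, and the test was just missed (log2 -0.82, SE 0.29, adjusted p = 0.0535) but passed without 1w0 nM replicate 1 (log2 -1.04, adjusted p = 0.0348). At 4 weeks XBP1 had 307, 312 and 307 in 4w0 nM, 288, 350.0 and 794 in 4w5 nM, and 557, 568 and 371 in 4w50 nM. Every 4w50 nM array was above vehicle (log2 0.67, SE 0.29, adjusted p = 0.0738), and the rise passed without 4w50 nM replicate 3 (log2 0.87, adjusted p = 0.0370). For 5 nM the value was log2 0.48 (adjusted p = 0.210), with 4w5 nM replicate 3 far above the other arrays of its group.

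DDIT4, also called REDD1, codes for an inhibitor of the growth kinase complex mTORC1 and is induced by ATF4, by hypoxia and by DNA damage. It had signals of 1156, 564 and 784 in 1w0 nM, 599, 674 and 633 in 1w5 nM, and 547, 545 and 642 in 1w50 nM. At 4 weeks it had 733, 718 and 760.2 in 4w0 nM, 599.8, 646 and 495 in 4w5 nM, and 816, 736 and 1718 in 4w50 nM. No dose differed from its vehicle by the test, with adjusted p between 0.167 and 0.467. At 4 weeks 50 nM was 1.75-fold above 5 nM (log2 0.81, SE 0.26, adjusted p = 0.0375), with no overlap. This fell to log2 0.43 (adjusted p = 0.169) without 4w50 nM replicate 3, and did not pass without any one of the 4w5 nM arrays either (adjusted p between 0.0624 and 0.0997).

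Between the doses, none of the 9 genes passed the test at 1 week and some did at 4 weeks. At 1 week, 0 of 9 genes were called between 50 nM and 5 nM, where 0.0109% of all genes tested were by limma. The count is thus no result about these genes and does not show that the doses were alike. By limma 1 of the 9, CEBPG, had an unadjusted p under 0.05. For CEBPG and TRIB3 all arrays of 1w50 nM lay below those of 1w5 nM. The 95% intervals of the log2 difference ran from -1.32 to 1.01 for TRIB3 and from -0.40 to 0.28 for ATF3. The bound was wide for TRIB3 and narrow for ATF3. Each interval rests on a spread pooled over the 6 groups, not only the dose groups of 1 week. For TRIB3 the log2 SD was 0.08 with 5 nM and 0.05 with 50 nM at 1 week. It was 1.61 and 0.72 with these doses at 4 weeks. Among vehicle arrays it was 0.91 at 1 week and 0.05 at 4 weeks. The width for TRIB3 thus came largely from groups outside this comparison. With array weights, whose fit stopped before it converged, 3 genes were called at 1 week, where 2342 of 9162 genes tested were. At 4 weeks 4 of 9 differed, where 17.4% of all genes tested did. TRIB3 and DDIT4 were higher with 50 nM, and CHAC1 and CEBPB were higher with 5 nM.

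In vehicle-treated cells, 3 of 9 genes were lower at 4 weeks than at 1 week (ATF3, CEBPG and CHAC1), where 0.72% of all genes tested were. ATF3 fell 1.85-fold (adjusted p = 0.00421), CHAC1 1.96-fold (adjusted p = 0.00436) and CEBPG 1.57-fold (adjusted p = 0.0312) between the vehicle groups. CEBPG did not pass without 1w0 nM replicate 2 or any one of the 4w0 nM replicates 1, 2 and 3 (adjusted p between 0.0548 and 0.132). DDIT3 had log2 -1.53 (SE 0.52, adjusted p = 0.123) and TRIB3 log2 -0.96 (SE 0.55, adjusted p = 0.372), again with the 1w0 nM arrays all above those of 4w0 nM. With only the arrays of the vehicle groups in the fit, ATF3, CHAC1 and CEBPG did not pass (adjusted p = 0.0812, 0.116 and 0.101). Time in culture and anything else that differed between the weeks cannot be told apart.

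The effect of each dose was then set between weeks, as the log2 change at 4 weeks minus that at 1 week. For 5 nM, 5 of 9 genes had a larger value at 4 weeks (ATF4, ATF3, CEBPG, CEBPB and CHAC1), where 15.2% of all genes tested did. For 50 nM it was 9 of 9, where 24.3% did. The shift was log2 2.47 (SE 0.25) for CHAC1 and 2.17 (SE 0.23) for ATF3 with 5 nM. With 50 nM it was log2 3.05 (SE 0.78) for TRIB3, 2.83 (SE 0.74) for DDIT3 and 2.31 (SE 0.23) for CEBPG. The smallest were CEBPB (log2 0.55, adjusted p = 0.0133), ATF4 (log2 0.68, adjusted p = 0.0124) and DDIT4 (log2 0.93, adjusted p = 0.0457). The call of DDIT4 was lost without any of 7 of the 12 arrays, among them 1w0 nM replicate 1 (log2 0.66, adjusted p = 0.134) and 4w50 nM replicate 3 (log2 0.55, adjusted p = 0.125).

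These shifts contain the 1w0 nM arrays. A comparison of the same dose at 4 weeks and at 1 week, without any vehicle array, gave 5 of 9 genes higher at 4 weeks with 5 nM, where 20.4% of all genes tested were. With 50 nM it gave 8 of 9, where 30.5% were. The genes higher with 5 nM were CHAC1 (log2 1.50, adjusted p = 1.65e-05), ATF3 (log2 1.28), CEBPG (log2 0.79), CEBPB (log2 0.65) and ATF4 (log2 0.48, adjusted p = 0.0163). With 50 nM ATF4 was the exception (log2 0.33, adjusted p = 0.0711), and the others ranged from log2 0.45 for CEBPB to 2.09 for TRIB3. The 4w5 nM and 4w50 nM arrays are also those with the low hybridization controls.

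Ordered by level, the groups fell apart differently for each gene. ATF3 and CHAC1 had 4w0 nM, 1w5 nM and 1w50 nM at the bottom with no step between them that passed the test, then a step to 1w0 nM of log2 0.80 (adjusted p = 0.00717) and 0.78 (adjusted p = 0.00621). Above it, 1w0 nM and 4w50 nM were not separated for either gene. The last step, from 4w50 nM to 4w5 nM, passed for CHAC1 (log2 0.67, adjusted p = 0.0153) and not for ATF3 (log2 0.18, adjusted p = 0.499). For CEBPB this was the only step that passed (log2 0.35, adjusted p = 0.0495). CEBPG had 1w50 nM, 1w5 nM and 4w0 nM below 4w5 nM, 1w0 nM and 4w50 nM, with the passing step between 4w0 nM and 4w5 nM (log2 0.55). For ATF4, DDIT3, TRIB3, DDIT4 and XBP1 no neighbors in the order differed by the test.

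**Figure D3:**
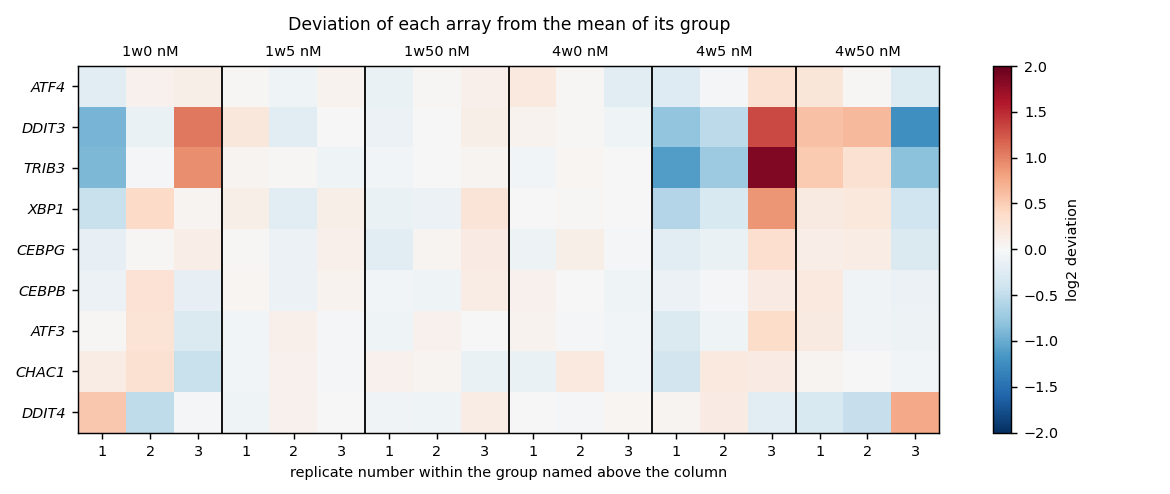
Deviation of each array from the mean of its group on the log2 scale (color, from -2 to 2), with the genes in rows and the 18 arrays in columns. In 4w5 nM replicate 3 and 1w0 nM replicate 3, DDIT3 and TRIB3 were above the mean of their group, and in 4w50 nM replicate 3 they were below it while DDIT4 was above.

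Within groups, the genes did not vary independently. Over the 18 arrays, after taking out the group means (12 residual degrees of freedom), DDIT3 and TRIB3 had a Pearson r of 0.94, TRIB3 and XBP1 0.87, CEBPG and XBP1 0.86, and DDIT3 and CEBPG 0.85. CHAC1 had an r of -0.09 with DDIT3 and 0.05 with TRIB3, but 0.70 with ATF3. DDIT4 ran the other way, with r of -0.70 against DDIT3 and -0.65 against XBP1. All points of these correlations share the arrays and their normalization, and 4w5 nM replicate 3 and 4w50 nM replicate 3 lie at their ends. They describe this set of arrays, and no p is given. The extremes of DDIT3 and TRIB3 fall on arrays of the vehicle group of 1 week as well as of both rotenone groups of 4 weeks.

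The 2 genes most like each member over the 18 arrays were found by Pearson r of the log2 signal among all genes tested. CEBPG was most like ASNS, asparagine synthetase (r = 0.97), and KATNA1, a microtubule-severing subunit (0.97). DDIT3 was most like SARS1, seryl-tRNA synthetase (0.95), and CCNB1IP1 (0.94), and TRIB3 like CCNB1IP1 (0.93) and WARS1, tryptophanyl-tRNA synthetase (0.92). ATF3 was closest to DET1 (0.96) and STC2, a secreted glycoprotein (0.96), and CHAC1 to ZNF232 (0.96) and ATF3 (0.95). CEBPB went with TXNRD1, thioredoxin reductase (0.97), and SLC38A2, an amino acid transporter (0.95), and XBP1 with HERPUD1 (0.96) and SEL1L (0.95), both of ER-associated degradation. For DDIT4 the nearest were SLC2A1, the glucose transporter GLUT1 (0.92), and CER1 (0.88), and for ATF4 ZNF16 (0.88) and PPA1 (0.87).

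Some of the promoters hold a motif of these factors. RefSeq windows of the members (build GRCh38.p14, from 250 bases before to 50 after a transcript start) numbered 17 for the 9 genes, and 35116 for all genes. The element TGATGNAAT, at which C/EBP and ATF proteins bind together, was in none of the 17 and in 0.991% of all windows, on either strand. Its first 8 bases alone, TGATGNAA, a form searched after the sequences had been seen and contained in the longer one, were in a window of ATF3, of CEBPG and of CHAC1, and in 3.62% of all windows. The cAMP response element TGACGTCA (1.85% of all windows) and the unfolded-protein element TGACGTGG (0.729%) were in none of the 17. CCAAT followed after 9 bases by CCACG, the ER stress response element, was in a window of XBP1 and in 0.0769% of all windows. Stretches upstream of the start are given 5′ to 3′ on the strand of the gene, for every member with a match. The matched letters are in capitals. A match is a description of these letters and not of binding.
ATF3, chr1:212565190-212565249, plus strand: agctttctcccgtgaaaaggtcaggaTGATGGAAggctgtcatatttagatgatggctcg
CEBPG, chr19:33374060-33374089, plus strand: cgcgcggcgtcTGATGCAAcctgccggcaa
CHAC1, chr15:40953236-40953295, plus strand: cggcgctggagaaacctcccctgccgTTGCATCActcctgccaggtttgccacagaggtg
XBP1, chr22:28800583-28800642, minus strand: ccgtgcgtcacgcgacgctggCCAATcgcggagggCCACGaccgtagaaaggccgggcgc

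The match of CHAC1 is on the opposite strand and begins 209 bases before the start, that of ATF3 191 bases before the upstream start of 2, that of CEBPG 42 bases before the downstream start of 2, inside the gene, and that of XBP1 52 bases before the upstream start of 2. No letters of these motifs were found within the windows of ATF4, DDIT3, CEBPB, TRIB3 and DDIT4, which says nothing of elements farther away.

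Of 48 further targets of ATF4 and CHOP 42 were measured. At 1 week 10 fell with 5 nM and 23 with 50 nM, where 1.62% and 11.3% of all genes tested did, and none rose, with medians of log2 -0.45 and -0.59 against 0.07 and 0.02 for all genes tested. At 4 weeks 5 nM raised 16 and lowered 2 (median log2 0.36), and 50 nM raised 21 and lowered 3 (median log2 0.50), against medians of 0.03 and 0.02. Called in either direction were 42.9% and 57.1% of the targets at 4 weeks, and 32.9% and 41.3% of all genes tested. Against the 4w0 nM arrays none fell at 1 week with 5 nM and 3 fell with 50 nM. Of all 9162 genes tested, 0 and 239 fell there, so the 0 is no result about the targets. The number that fell with 5 nM was 4 without 1w5 nM replicate 2 and 5 without replicate 3, and with 50 nM it was 15 without 1w0 nM replicate 2, 11 without 1w50 nM replicate 1 and 13 without replicate 2. At 4 weeks the number that rose with 5 nM was 10 without 4w5 nM replicate 3.

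**Figure D4:**
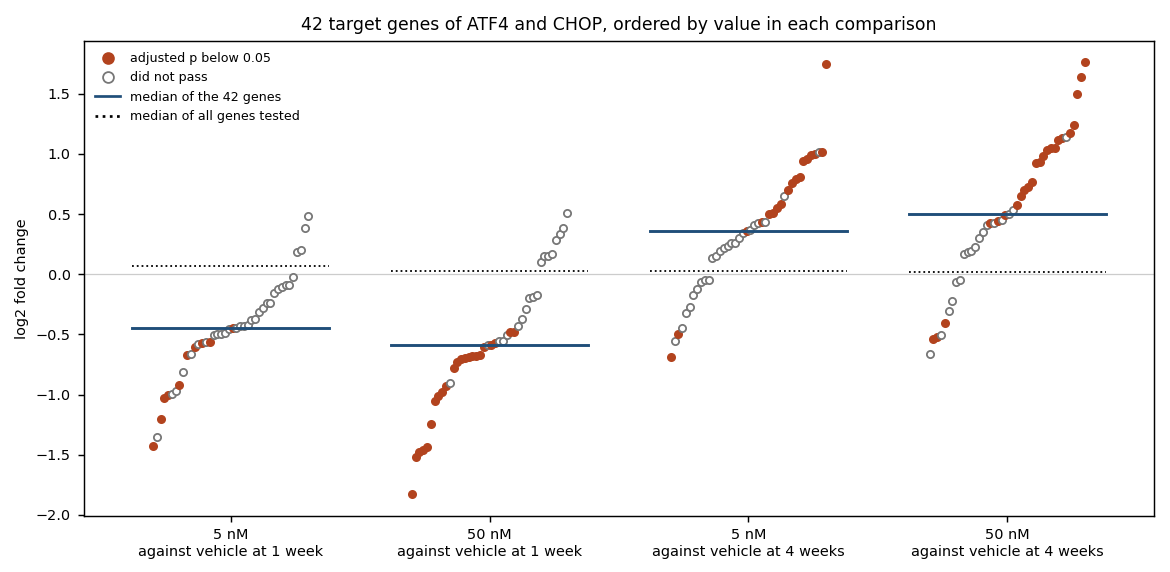
Log2 fold change (y axis) of the 42 measured targets of ATF4 and CHOP in the 4 comparisons of a dose with its vehicle (x axis), ordered by value within each. The solid line is their median and the dotted line that of all genes tested. The median of the targets lies below the dotted line at 1 week and above it at 4 weeks.

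The 3 vehicle arrays of 1 week had a mean ASNS signal of 1574 ± 219.7 (SD, n = 3), while the mean was 584 ± 32.7 in 1w5 nM and lowest, 446 ± 83.8, in 1w50 nM. At 4 weeks the vehicle mean was 666 ± 52.2, and the means of the 5 nM and 50 nM groups were 1335 ± 485 and 1622 ± 472. It fell at 1 week (log2 -1.42, adjusted p = 0.00163 with 5 nM, and log2 -1.83, adjusted p = 0.000116 with 50 nM), and it rose at 4 weeks (log2 0.94 and 1.24). CTH, which makes cysteine, had -1.03 and -1.46 at 1 week and 0.79 and 1.76 at 4 weeks on the log2 scale, each past the test. PSAT1, an enzyme of serine synthesis, fell at 1 week (log2 -1.20 with 5 nM and -1.52 with 50 nM) and rose with 5 nM at 4 weeks (log2 0.81, adjusted p = 0.00333), and its value with 50 nM did not pass (log2 0.42, adjusted p = 0.0790). ERO1A, an oxidase of the ER that CHOP induces, fell at 1 week with 50 nM (log2 -0.68) and rose with 5 nM (log2 0.76) and 50 nM (log2 1.05) at 4 weeks. The few that fell at 4 weeks, named because they are so few, were NUPR1 (log2 -0.69) and BCL2L11 (log2 -0.50) with 5 nM, and EIF4EBP1 (-0.54), BCL2L11 (-0.53) and SLC1A5 (-0.40) with 50 nM. BCL2L11 codes for BIM, a cell death gene that CHOP can induce, and EIF4EBP1 for a repressor of translation.

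Upstream of ATF4, the eIF2 kinases, eIF2, its exchange factor eIF2B and its phosphatase showed no common direction. Of 18 measured, 1 rose with either dose at 1 week and 3 fell with 50 nM, while at 4 weeks 5 nM raised 3 and lowered 1, and 50 nM raised 4 and lowered 2. Called in either direction at 1 week were 5.56% and 22.2% of them, near the 6.59% and 20.1% of all genes tested. At 4 weeks 22.2% and 33.3% of them were called, below the 32.9% and 41.3% of all genes tested. Their medians were between 0.02 and 0.15 on the log2 scale. The number that fell at 1 week with 50 nM was 1 without 1w0 nM replicate 1 or 1w50 nM replicate 1 or 2, and 5 rose at 4 weeks with 5 nM without 4w5 nM replicate 3. IMPACT, an inhibitor of the kinase GCN2, rose with 5 nM (log2 0.99, adjusted p = 0.00549) and 50 nM (log2 1.27, adjusted p = 0.000615) at 4 weeks from a mean signal of 57.4 ± 20.9 (SD, n = 3) in 4w0 nM. Its means at 1 week were 37.3, 41.2 and 38.8 by rising dose, under the 50 of the filter on low values. The rise of IMPACT thus starts from a low level. The phosphatase subunit PPP1CA fell (log2 -0.76 and -0.90) while its relative PPP1CC rose (log2 0.46 and 0.64), as did EIF2S2, eIF2-beta (log2 0.44 and 0.63).

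In the IRE1 and ATF6 arms and their ER targets, 30 were measured. At 1 week 1 fell with 5 nM and 4 with 50 nM, and at 4 weeks 5 nM raised 6 and lowered none, while 50 nM raised 8 and lowered 3. At 1 week 3.33% and 13.3% of the list thus fell, where 1.62% and 11.3% of all genes tested did. The 6 of 30 called with 5 nM at 4 weeks compare with 32.9% of all genes tested in either direction, and the 36.7% called with 50 nM with 41.3%. The median of the list was log2 0.19 with 5 nM and -0.03 with 50 nM at 4 weeks. ATF6, an ER stress sensor, fell at 1 week with 5 nM (log2 -0.57, adjusted p = 0.0112) and 50 nM (log2 -0.65, adjusted p = 0.00210) and rose at 4 weeks with 50 nM (log2 0.43, adjusted p = 0.0103). ATF6B, its relative, rose at 4 weeks by log2 1.04 with 5 nM and 1.41 with 50 nM. SEC24D, a coat protein of vesicles that leave the ER, rose by log2 2.04 with 5 nM and 1.40 with 50 nM. Its mean signal was 36.8 ± 9.6 (SD, n = 3) in 4w0 nM, under the 50 of the filter on low values, so these values start from a low level. SPCS1, of the signal peptidase, rose with 50 nM (log2 0.46). These counts moved with single arrays: the 6 that rose with 5 nM were 3 without replicate 1 or replicate 2 of 4w0 nM and also without 4w5 nM replicate 3, the 8 with 50 nM were 5 without 4w50 nM replicate 1, and the 4 that fell with 50 nM at 1 week ranged from 1 to 9, the highest without 1w0 nM replicate 3.

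Among the bZIP partners and relatives, 28 were measured. At 1 week the 5 nM dose raised 2 and lowered 1, and the 50 nM dose raised 2 and lowered 8. At 4 weeks 5 nM raised 8 and lowered 4, whereas 50 nM raised 9 and lowered 2. That is 42.9% and 39.3% called at 4 weeks, against 32.9% and 41.3% of all genes tested, and 10.7% and 35.7% at 1 week, against 6.59% and 20.1%. JUNB, a growth and immediate-early factor, rose at 1 week with 5 nM (log2 1.22, adjusted p = 0.000406) and 50 nM (log2 1.15, adjusted p = 0.000405) and fell at 4 weeks with 5 nM (log2 -0.93, adjusted p = 0.000640), while 50 nM gave log2 -0.03 there (adjusted p = 0.914). CEBPA, a factor of differentiation, fell with 5 nM at 4 weeks (log2 -1.75, adjusted p = 1.37e-05) and had log2 -0.19 with 50 nM (adjusted p = 0.476). With 5 nM at 4 weeks 4 rose without 4w0 nM replicate 1 or 3 and 5 without replicate 2, and with 50 nM at 1 week 5 fell without 1w50 nM replicate 1. NFIL3, a repressor, rose with 50 nM at 4 weeks (log2 1.37, adjusted p = 2.09e-05) and had log2 0.17 with 5 nM (adjusted p = 0.498).

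The relatives of TRIB3 and DDIT4 and the regulators of mTORC1 counted 14 measured genes. None of them was called at 1 week, where 6.59% of all genes tested were with 5 nM and 20.1% with 50 nM. At 4 weeks 5 nM raised 1 and lowered 3, and 50 nM raised 2 and lowered 5. Called in either direction were 28.6% and 50.0%, against 32.9% and 41.3% of all genes tested. TXNIP, an inhibitor of glucose uptake, fell with 5 nM (log2 -1.15) and 50 nM (log2 -0.63). AKT1, a kinase that TRIB3 binds, fell with 5 nM (log2 -0.90) and 50 nM (log2 -0.59), and MLST8, a subunit of mTORC1, by log2 values of -0.48 and -0.40. TRIB1, a pseudokinase related to TRIB3, fell with 50 nM (log2 -2.01, adjusted p = 0.00545) and had log2 0.48 with 5 nM (adjusted p = 0.507), so the TRIB genes differed in direction with 50 nM at 4 weeks.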

How the data were processed

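SK-N-MC cells with vehicle, 5 nM or 50 nM rotenone for 1 or 4 weeks were measured on 18 Affymetrix human genome arrays, in 6 groups of 3 taken from the labels. The deposited values are signal intensities of probe sets on a linear scale, which the authors normalized across arrays with dChip and summarized by its model (the model-based expression index). The dChip version and settings are not given in the sources used here. Of 22283 probe sets, 68 are controls, 19065 carry 1 gene in the platform annotation, 1043 several and 2107 none. The members, lists, rules and alternatives were chosen with earlier results of these data known.

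Array medians differed by 1.17-fold, so the intensities were used as deposited. A floor of 16 was applied before taking log2. Single-gene probe sets that reached 50 on 3 or more arrays entered (13705), and the one with the highest mean stood for its gene, which gave 9162 genes. With limma 3.58.1 in R 4.3.3, 6 group means were fitted to all arrays (eBayes with intensity trend, 12 residual and 5.71 prior degrees of freedom), and p-values were adjusted by Benjamini-Hochberg over all genes within a comparison. The fit was tested on simulated data. With 3 arrays a group, their number limits the precision. Intervals are 95%.

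Named genes were all members, up to 4 genes of each of 5 lists (those called in at least 1 dose comparison, with the smallest p) and the 2 genes most like each member. Promoter windows were searched with Python 3.11.15. A planned comparison of the protein sequences was not made, and no member had a further probe set. Alternatives were other floors, scalings, filters, probe set rules, variance models, a replicate block, the methods' t-test on linear signals with a fold over 2, the 4w0 nM arrays as vehicle of 1 week, swapping the arrays of 1w5 nM replicate 2 with 1w50 nM replicate 3, and leaving out each array.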

Additional observations from a re-analysis of the deposited data

Results flagged for a closer look

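The effect of a dose differed between weeks, by the test of the difference itself, for several members. All values are log2 change at 4 weeks minus log2 change at 1 week, from limma with Benjamini-Hochberg adjustment over all genes tested. For 5 nM the differences were 0.83 for ATF4, 2.17 for ATF3, 1.44 for CEBPG, 0.75 for CEBPB and 2.47 for CHAC1, with adjusted p between 3.28e-06 for CHAC1 and 0.00533 for ATF4. For 50 nM they were 0.68 for ATF4, 2.83 for DDIT3, 2.04 for ATF3, 2.31 for CEBPG, 0.55 for CEBPB, 1.76 for CHAC1, 3.05 for TRIB3, 0.93 for DDIT4 and 1.48 for XBP1, with adjusted p between 1.25e-06 for CEBPG and 0.0457 for DDIT4. Each is flagged because the difference of the dose from its vehicle was not the same at the 2 times by the test. Each value also contains the difference between the 2 vehicle groups. With 50 nM, DDIT4 (adjusted p = 0.202 at 1 week and 0.167 at 4 weeks) and XBP1 (0.0535 and 0.0738) differed from vehicle by the test at neither time. The call of DDIT4 passed in 5 of the 12 fits that left out an array. The 4 groups of each difference hold 3 arrays each, and the 1w0 nM arrays, the group with the lowest correlation between arrays, enter all of them.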

How the results depend on the processing

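Over 1755 recomputed values of members, 1590 kept their side of the threshold without a called value changing sign (26 of these changed sign with neither value called), 130 lost a call, 31 gained it and 4 reversed. The reversed values were ATF3 (log2 0.083 with 5 nM and 0.023 with 50 nM) and CHAC1 (0.15 and 0.19) at 1 week when the 4w0 nM arrays stood in for the vehicle, which left 0 calls with 5 nM and 1 with 50 nM. The number of members called was 3 with 5 nM and 5 with 50 nM at 1 week, 5 and 5 at 4 weeks, 0 and 4 between the doses at 1 and 4 weeks, and 3 between the vehicle groups. When other groups were kept out of the fit it was 0 with 5 nM and 2 with 50 nM at 1 week, 1 between the doses at 4 weeks and 0 between the vehicle groups. Of all 9162 genes tested, 36, 273, 1385 and 46 were called in these comparisons. With no filter it was 3 with 50 nM at 1 week and 1 between the doses at 4 weeks, and with no intensity trend 3 with 50 nM at 1 week. Over all genes the calls were 1734 and 1326 of 11963 with no filter, and 1815 of 9162 with no intensity trend. Array weights, whose fit stopped before it converged, gave 8 with 50 nM at 4 weeks, and 3 and 7 between the doses at 1 and 4 weeks. Of all 9162 genes tested, they gave 5599 with 50 nM at 4 weeks, and 2342 and 3773 between the doses. The methods' t-test with a fold over 2 called 0 and 1 at 1 week, 2 and 1 at 4 weeks, 0 between the doses at 4 weeks and 0 between the vehicle groups, and 0 in each of these after Benjamini-Hochberg. Over all genes that t-test called 93 and 139 at 1 week, 523 and 797 at 4 weeks, 375 between the doses and 88 between the vehicle groups. After Benjamini-Hochberg the calls over all genes were 241 and 347 at 4 weeks and 0 in the others. Without 1 array each, the counts ranged from 3 to 7 with 50 nM at 1 week (7 without 1w0 nM replicate 1), from 3 to 7 with 50 nM at 4 weeks (7 without 4w50 nM replicate 3), and from 0 (without 4w5 nM replicate 2) to 4 between the doses at 4 weeks. In the 3 fits named here, 1229, 3635 and 958 of all 9162 genes tested were called in these comparisons.

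Whether arrays with the same replicate number come from the same experiment is not stated in the sources used here. Of 45 same-numbered correlations of deviations 11 were over 0.1 (range -0.48 to 0.32), which cannot decide it with 3 arrays a group. With the replicate block 3 members were called with 50 nM at 1 week, where ATF4 (adjusted p = 0.0689) and CEBPB (adjusted p = 0.0554) did not pass. Of all 9162 genes tested, 1688 were called there. The block also ended the calls of CEBPB between the doses at 4 weeks (adjusted p = 0.0715) and of DDIT4 between weeks with 50 nM (adjusted p = 0.0511), which left 8 of 9, and no other call of a member. Swapping replicate 2 of 1w5 nM with replicate 3 of 1w50 nM gave 3 and 6 calls at 1 week, where 450 and 1642 of all 9162 genes tested were called. Over all genes, calls with 5 nM at 1 week went from 604 to 36 without the other groups, 257 with array weights and 0 against 4w0 nM. For 50 nM at 1 week they went from 1838 to 273, 1460 and 250. The cause was not tested. Quantile normalization and median scaling left the direction of every called member as it was, while calls were lost for CEBPB between the doses at 4 weeks, DDIT4 between weeks with 50 nM and ATF4 with 50 nM at 1 week. All 9 probe sets are above the floor on every array, and the number of arrays limits the precision.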
